A study of Homo sapiens with 10 samples.

Results

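Cyclic nucleotide phosphodiesterases are described here in RPTEC/TERT1, a line of human renal proximal tubule epithelial cells immortalised with telomerase, 7 days after ionising radiation. The 10 genes covered are PDE1A, PDE1C, PDE3A, PDE4A, PDE4B, PDE4D, PDE5A, PDE7B, PDE8A and PDE10A, found in the gene-level count table of 61587 rows by matching Ensembl identifiers to these symbols. PDE1A was chosen by its fitted fall after irradiation, one of the deepest in these same libraries, so its values are given as a description without a test. The other 9 were listed with results of these data known, and their p-values come from the fit over all genes and are to be read as descriptions.

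Phosphodiesterases end cyclic nucleotide signals by cleaving cAMP, cGMP or both to the inactive 5′-monophosphates. Receptors coupled to Gs and the adenylyl cyclases raise cAMP, guanylyl cyclases raise cGMP, and protein kinase A, the EPAC exchange factors and CREB carry the signal onward. In the proximal tubule, cAMP lies downstream of the parathyroid hormone receptor, which restrains phosphate reabsorption, and the subfamilies differ in substrate and in how they are regulated.

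Bulk RNA-seq was available for 5 irradiated cultures, given 10 Gy of caesium-137 gamma rays, and 5 mock-irradiated controls, both harvested on day 7. Both groups were grown in the same supplemented medium, which held hydrocortisone, epidermal growth factor, triiodothyronine, insulin, transferrin, selenium and prostaglandin E1, itself an agonist of cAMP-raising receptors. All samples therefore come from a single immortalised line, and the comparison addresses how the transcriptome of irradiated tubular cells differs from that of mock-irradiated ones. Replicates 1 to 5 carry the labels B1, B3, B4, B5 and B6, and each number joins a control and an irradiated sample. Nothing in the labels says that they were independent cultures, so the p-values measure the spread between these samples.

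Total counts ranged from 66269311 to 131555873 per library. The tubular and epithelial genes PAX8 (468 to 627 CPM over all 10 samples), KRT8 and KRT18 were strongly expressed, whereas LRP2, HNF4A and SLC22A6, which mark differentiated proximal tubule, stood at 0 to 0.0540 CPM, and SLC12A1, a transporter of the thick ascending limb, was at 99.9 to 399.5 CPM in controls and 17.3 to 170.9 CPM in irradiated samples, lower in all 5 pairs (log2 fold change -1.80, edgeR adjusted p = 0.000121). Control replicate 3 stood apart from the other controls at 6.84% of the genes tested, against 0.168% to 2.98% for the other libraries. Summed CPM of the 5 fibroblast markers was 15.8 to 23.4 in controls and 28.5 to 40.0 in irradiated cells, that of the 4 endothelial markers 1.29 to 2.40 and 4.15 to 6.07, and that of the 5 leukocyte markers 0.487 to 0.685 and 1.81 to 2.49. In each of these lists 2 genes were called higher and none lower (edgeR), of 2 fibroblast, 3 endothelial and 3 leukocyte genes tested. Of all genes tested, 23.9% were called higher. The called markers include CDH5 (0.361 to 0.984 CPM in controls, 1.85 to 4.24 in irradiated cells) and ITGAM (0.0168 to 0.0787 and 0.853 to 1.71). ITGAM held 2 to 11 counts per control library and 58 to 157 per irradiated library. It was tested only because its counts were high in the irradiated libraries, so its call is a description. Of the same lists, COL3A1, LUM, KDR, CD3E and MS4A1 stood at 0 to 0.0226 CPM throughout. The rest were detected over the 10 samples. COL1A1 was at 15.2 to 39.1 CPM, DCN at 0.110 to 4.45, PDGFRA at 0.0572 to 0.179 and PECAM1 at 0.558 to 1.87. VWF was at 0.189 to 0.588 CPM, PTPRC at 0.185 to 0.540 and CD14 at 0.196 to 0.659. Of 4 smooth muscle genes tested, 1 was called higher and 1 lower (edgeR), where 22.7% of all genes were called lower. Summed CPM of the 5 genes in that list was 5.32 to 6.34 in controls and 5.58 to 9.68 in irradiated cells. The proliferation gene MKI67 was at 60.4 to 233.9 CPM in controls and 15.3 to 29.6 in irradiated cells. The part of any of these in the changes below was not tested. In bulk RNA, fewer cells of a kind and less RNA per cell cannot be told apart.

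Promoter windows from RefSeq (GRCh38.p14), each spanning 250 bases before to 50 bases after a transcription start, were available for all 10 genes, 42 windows in all. They were searched for the full cAMP response element TGACGTCA, the site bound by CREB, and for the AP-1 motif TGANTCA; each reads the same on both strands, and no window of the 10 genes held both. The cAMP response element occurred in 2 windows, of PDE4A and PDE7B, and in 1.85% of the 35116 windows of all genes. These windows are shown with the element in capitals. The PDE4A window, chr19:10416523-10416822 on the plus strand, belongs to a start other than that of the canonical transcript, with the element beginning 3 bases before that start and running across it. The PDE7B window, chr6:135851451-135851750 on the plus strand, belongs to the canonical start, with the element beginning 155 bases upstream.
PDE4A: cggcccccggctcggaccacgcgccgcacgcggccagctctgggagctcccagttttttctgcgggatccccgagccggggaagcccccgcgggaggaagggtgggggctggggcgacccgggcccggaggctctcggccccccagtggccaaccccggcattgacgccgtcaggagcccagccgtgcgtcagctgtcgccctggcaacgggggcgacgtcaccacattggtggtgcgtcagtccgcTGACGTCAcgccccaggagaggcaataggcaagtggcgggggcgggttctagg
PDE7B: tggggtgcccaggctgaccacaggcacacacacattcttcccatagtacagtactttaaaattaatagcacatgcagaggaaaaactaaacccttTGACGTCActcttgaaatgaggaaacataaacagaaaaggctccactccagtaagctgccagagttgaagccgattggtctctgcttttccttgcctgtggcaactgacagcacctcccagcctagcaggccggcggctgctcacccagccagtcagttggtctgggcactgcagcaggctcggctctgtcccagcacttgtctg
The canonical windows of PDE1A and PDE10A, the genes with the deepest fall and the steepest rise among the 10, are also shown. That of PDE1A, chr2:182426987-182427286 on the minus strand, had a GC content of 41.7%, and that of PDE10A, chr6:165663192-165663491 on the minus strand, had 74.3%, against a median of 58.7% over all windows. The canonical windows of PDE4A and PDE7B, both called lower below, had 78% and 52.7%, and that of PDE4B, called higher, had 62.3%. Those of the genes not called had 64.7% (PDE1C), 66.7% (PDE4D) and 77.3% (PDE5A and PDE8A). The only window of PDE3A, at another start, had 35%. A link between base composition and direction of change was not tested.
PDE1A: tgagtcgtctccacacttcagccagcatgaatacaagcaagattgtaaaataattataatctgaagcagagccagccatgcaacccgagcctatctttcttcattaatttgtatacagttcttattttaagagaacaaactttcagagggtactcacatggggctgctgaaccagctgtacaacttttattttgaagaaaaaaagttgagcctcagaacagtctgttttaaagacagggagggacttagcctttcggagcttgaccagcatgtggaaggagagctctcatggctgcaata
PDE10A: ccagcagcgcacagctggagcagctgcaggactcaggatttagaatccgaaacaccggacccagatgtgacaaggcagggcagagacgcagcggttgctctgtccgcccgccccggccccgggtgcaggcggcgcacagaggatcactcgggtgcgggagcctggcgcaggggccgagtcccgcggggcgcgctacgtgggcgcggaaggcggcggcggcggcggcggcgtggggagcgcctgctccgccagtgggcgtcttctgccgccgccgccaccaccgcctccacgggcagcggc
Neither motif was found in the windows shown for PDE1A and PDE10A. The 7 windows of PDE1A ran from 36.3% to 45.3% GC. The AP-1 motif was present in 1 window of PDE3A and 2 of PDE4D, and in 7.71% of all windows. These matches are descriptions of letters, not of binding.

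All 10 genes passed the minimum of 200 counts over the 10 samples. Beside PDE1A, which was chosen for its fall and is left out of the counts that follow, PDE3A, PDE4A and PDE7B were lower after irradiation, PDE4B and PDE10A were higher, and PDE1C, PDE4D, PDE5A and PDE8A did not pass the adjusted p threshold of 0.05 (edgeR quasi-likelihood test, Benjamini-Hochberg over 19006 genes, replicate number as a block). That is 5 of 9 called, where 46.6% of all genes tested were called, 23.9% higher and 22.7% lower. The control and irradiated values did not overlap for 3 of the 9 (2 lower and 1 higher), and for 26.7% of all genes, 12.0% lower and 14.6% higher. The fall was over 2-fold for PDE3A, where 4.06% of all genes fell that far, and none of the 9 rose by over 2-fold, as 5.26% of all genes did. The median log2 fold change was -0.17 over the 9 genes and -0.01 over all genes. All expression values below are TMM-normalised counts per 1000000 mapped counts (CPM), which compare a gene between samples.

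**Figure D1:**
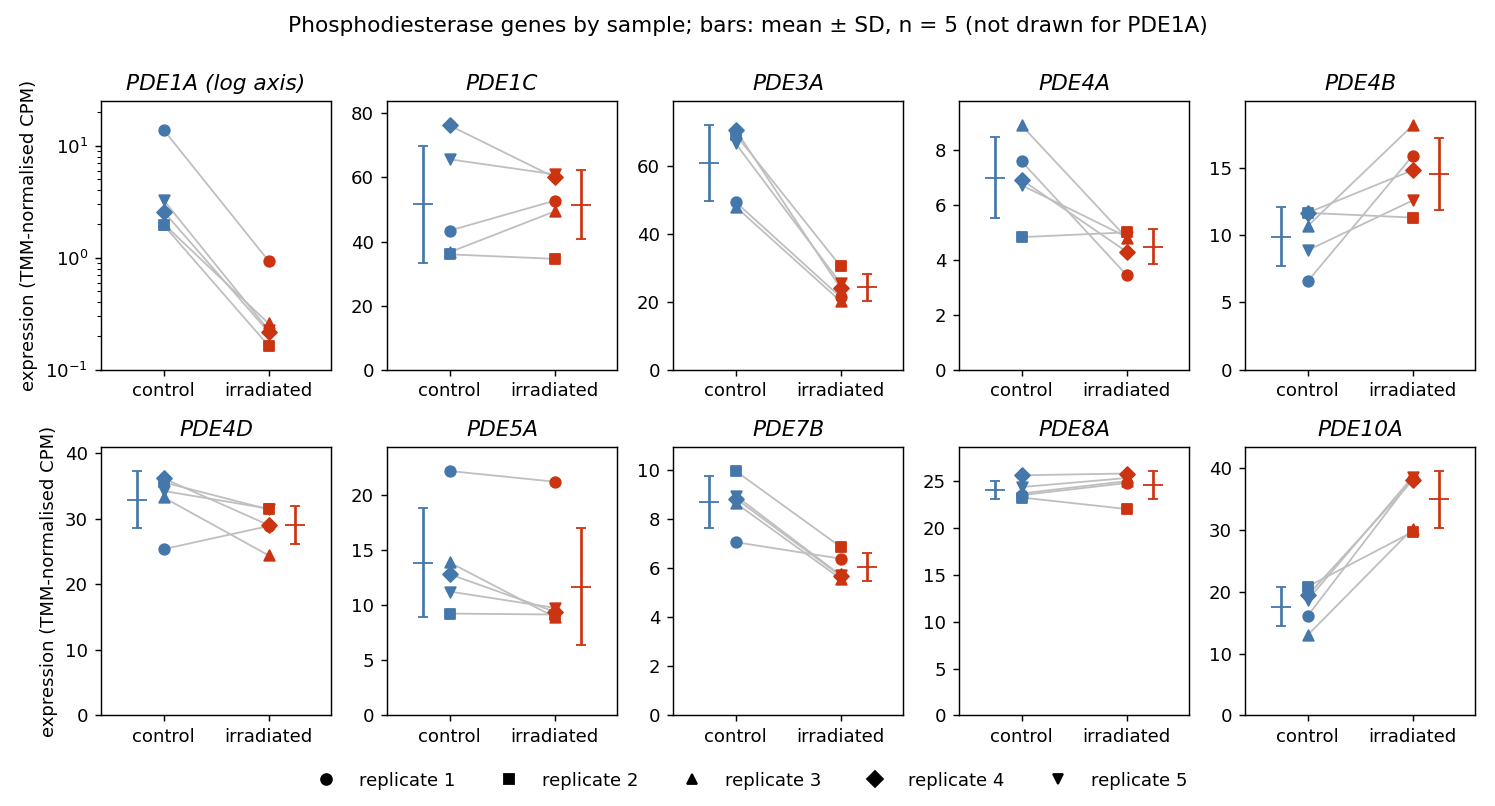
Expression of each of the 10 phosphodiesterase genes (TMM-normalised CPM, y axis, logarithmic for PDE1A and from 0 for the rest) in control and irradiated samples, with a marker shape per replicate, grey lines joining samples of the same number and bars giving mean ± SD (n = 5, not drawn for PDE1A). Replicate 1 lies above the other samples of its group for PDE1A and PDE5A, and all 5 lines fall for PDE3A and PDE7B and rise for PDE10A.

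The PDE1 subfamily, activated by calcium and calmodulin and able to cleave both cyclic nucleotides, was represented by PDE1A and PDE1C, which behaved differently. PDE1A (ENSG00000115252, chr2:182139968-182523359, minus strand, GRCh38) stood at 13.8, 1.95, 2.0, 2.58 and 3.26 CPM in control replicates 1 to 5, and at 0.939, 0.164, 0.259, 0.218 and 0.226 CPM in irradiated replicates 1 to 5. The groups did not overlap, and every irradiated sample was below its own control. The fitted log2 fold change was -3.60 (SE 0.16), a 12.1-fold lower level, the 14th deepest fall among 19006 genes. The irradiated values rest on 11 to 93 counts, and the control values on 201 to 1131.

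Replicate 1, labelled B1, was high in both conditions. Control replicate 1 was 5.65 times the mean of the other 4 controls, and irradiated replicate 1 was 4.33 times the mean of the other 4 irradiated samples, at a level still below every control. The differences within pairs 1 to 5 were -3.85, -3.42, -2.86, -3.45 and -3.73 on the log2 scale, so pair 1 was shifted in level in both conditions while its difference was close to that of pair 5. Without replicate 1 the control mean was 2.45 ± 0.61 CPM (SD, n = 4) and the irradiated mean 0.217 ± 0.039 CPM (SD, n = 4). PDE5A showed the same shift of replicate 1 (1.88 times the other controls and 2.28 times the other irradiated samples), whereas the other 8 genes of replicate 1 lay between 0.613 and 1.12 times the mean of the rest.

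**Figure D2:**
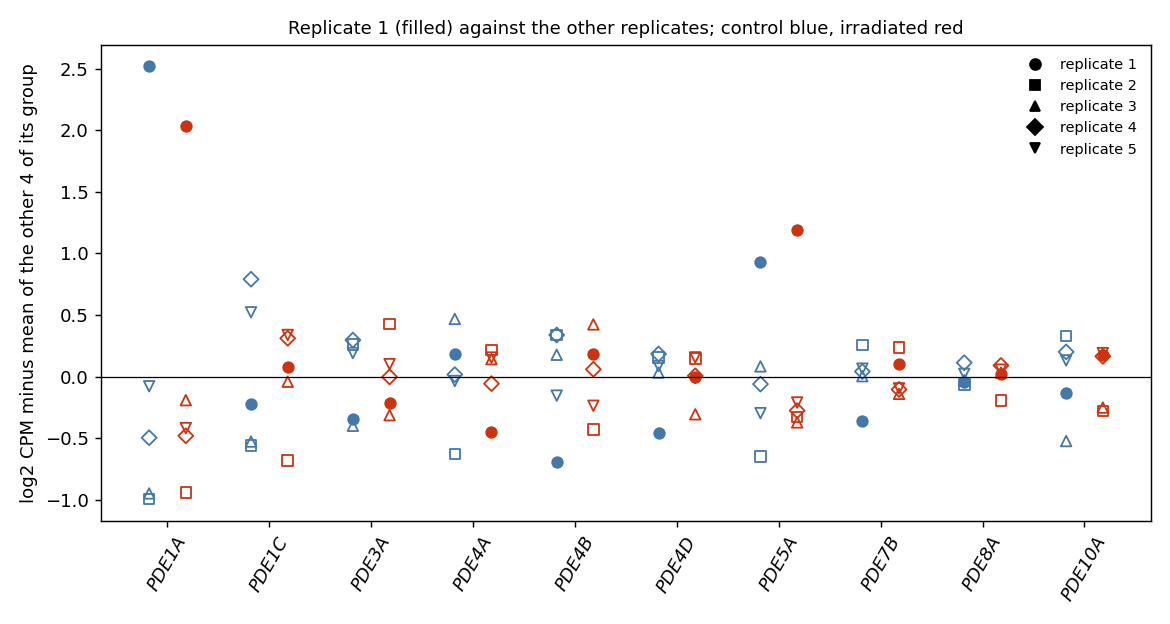
Distance of each sample from the mean of the other 4 samples of its group (log2 CPM) for the 10 genes, with controls in blue, irradiated samples in red, a marker shape per replicate and replicate 1 filled. PDE1A in replicate 1 sits 2.52 above in controls and 2.03 above in irradiated samples, and PDE5A sits 0.93 and 1.19 above.

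PDE1C was expressed above PDE1A per unit of exon length and did not pass the test. Its controls ran 43.4, 36.0, 36.7, 76.2 and 65.6 CPM and its irradiated samples 52.7, 34.6, 49.4, 60.1 and 61.0 CPM. Replicates 4 and 5 were the highest in both groups, and the groups overlapped throughout. The log2 fold change was 0.04, with a 95% confidence interval of -0.21 to 0.29 (edgeR adjusted p = 0.785).

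PDE3A, which encodes a cAMP-hydrolysing enzyme that cGMP inhibits, had a fall second in depth to that of PDE1A. Controls were at 49.4, 69.2, 48.0, 70.6 and 66.6 CPM and irradiated samples at 21.4, 30.5, 20.2, 24.0 and 25.4 CPM. Every irradiated value was below every control. PDE3A fell 2.49-fold, a log2 fold change of -1.32 (SE 0.06) (edgeR adjusted p = 1.56e-05), with means of 60.7 ± 11.1 and 24.3 ± 4.02 CPM (SD, n = 5). Control replicates 1 and 3, the lowest controls for PDE3A, were also the lowest for MKI67, at 76.7 and 60.4 CPM against 216.7 to 233.9 CPM in the other controls, and the part of proliferation was not tested.

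The PDE4 genes encode cAMP-specific enzymes that are anchored at different places in the cell, and they moved in different directions. PDE4A was at 7.58, 4.83, 8.89, 6.92 and 6.72 CPM in controls and 3.45, 5.00, 4.81, 4.30 and 4.84 CPM after irradiation. The groups overlapped in control replicate 2, which was below its own irradiated partner. PDE4A fell 1.55-fold, a log2 fold change of -0.63 (SE 0.16) (edgeR adjusted p = 0.0146), and the call was lost without replicate 1 (adjusted p = 0.0509) or replicate 4 (0.0501).

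PDE4B showed the opposite direction. Controls were at 6.57, 11.7, 10.7, 11.7 and 8.87 CPM and irradiated samples at 15.9, 11.3, 18.1, 14.8 and 12.6 CPM. It was higher in 4 of 5 pairs, with irradiated replicate 2 within the control range. PDE4B rose 1.48-fold, a log2 fold change of 0.57 (SE 0.17) (edgeR adjusted p = 0.0265), and the call was lost without replicate 1 (adjusted p = 0.0592), 3 (0.0618) or 5 (0.0674).

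PDE4D, the most abundant PDE4 gene per unit of exon length in controls, had means of 32.9 ± 4.36 CPM in controls and 29.0 ± 2.89 CPM in irradiated samples (SD, n = 5). Control replicate 1 was low, at 25.3 CPM, against 33.2 to 36.1 CPM in the other controls. The log2 fold change of -0.17, with an interval of -0.37 to 0.03, did not pass the threshold (edgeR adjusted p = 0.134), and without replicate 1 it did (-0.26, adjusted p = 0.0248).

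PDE5A, a cGMP-specific enzyme, was at 22.1, 9.22, 13.9, 12.8 and 11.2 CPM in controls and 21.2, 9.14, 8.91, 9.40 and 9.75 CPM after irradiation. It was lower in all 5 pairs, but by little in replicates 1 and 2, and the groups overlapped. The log2 fold change was -0.27 with an interval of -0.50 to -0.04 (edgeR adjusted p = 0.0566). The value lay close to the threshold and fell on its other side in 6 of the 13 alternative analyses (adjusted p = 0.0197 to 0.538 over all 13). Of the exon length of PDE5A, 9.21% lies under exons of the opposite strand, and of that of PDE7B 7.61%. Of 425 lncRNA genes wholly under such exons 97.9% had 0 counts, so reads there appear to be mostly left out of the counts.

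PDE7B and PDE8A encode cAMP-specific enzymes with high affinity for their substrate. PDE7B was at 7.06, 9.96, 8.65, 8.84 and 8.95 CPM in controls and 6.39, 6.87, 5.57, 5.68 and 5.71 CPM after irradiation. The groups did not overlap, although control replicate 1 came close to irradiated replicate 2. PDE7B fell 1.43-fold, a log2 fold change of -0.52 (SE 0.09) (edgeR adjusted p = 0.00304). PDE8A was the steadiest of the 10, at 23.3 to 25.6 CPM in controls and 22.0 to 25.8 CPM after irradiation, with a log2 fold change of 0.03 and an interval of -0.08 to 0.14 (edgeR adjusted p = 0.642).

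PDE10A, which cleaves both cyclic nucleotides and is best known from striatal neurons, was the only one of the 10 with higher, non-overlapping values. Controls were at 16.1, 20.8, 13.0, 19.4 and 18.7 CPM and irradiated samples at 38.3, 29.7, 30.2, 38.0 and 38.6 CPM. Even the highest control lay below the lowest irradiated sample. It rose by 1.0 on the log2 scale (SE 0.11), with means of 17.6 ± 3.10 and 35.0 ± 4.59 CPM (SD, n = 5; edgeR adjusted p = 0.000256), and PDE10A ranked 1008th of 19006 genes from the steepest rise.

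**Figure D3:**
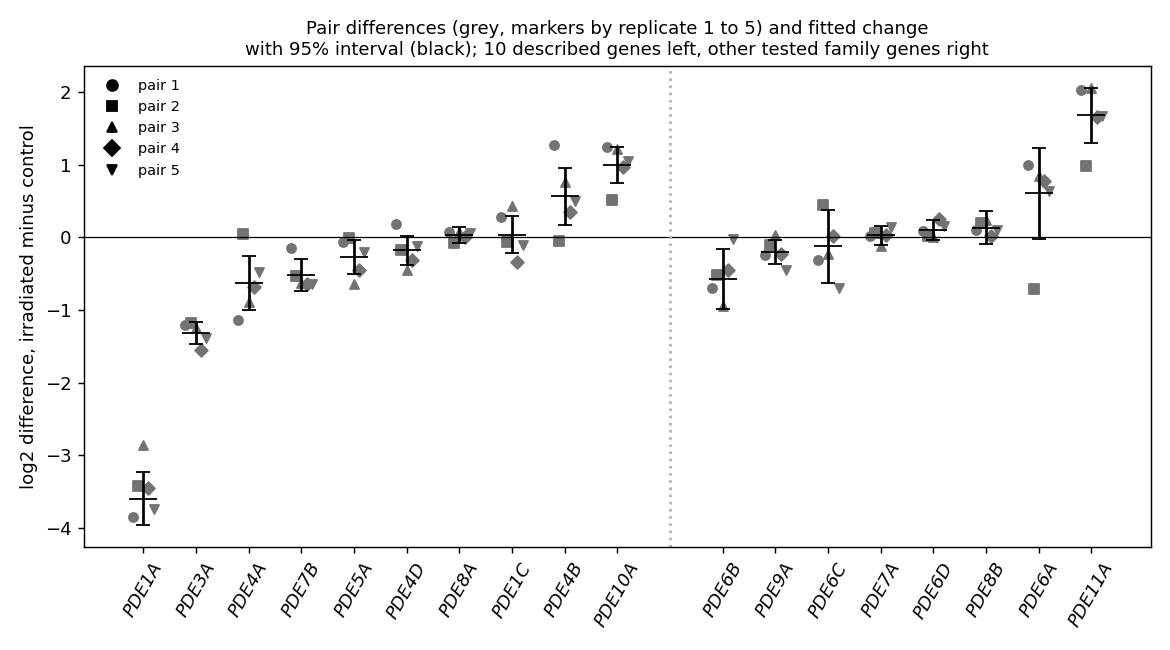
Irradiated minus control differences (log2) of the 5 pairs as grey points, with the fitted log2 fold change and its 95% confidence interval, for the 10 genes and for the other phosphodiesterase genes that passed the count minimum. PDE1A lies between -3.85 and -2.86 in every pair, and PDE10A and PDE11A lie above 0 in every pair.

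The remaining 14 phosphodiesterase genes place these values in the family. Of them 8 passed the count minimum, 1 higher and 1 lower at the adjusted threshold. PDE11A, a dual-substrate enzyme related to PDE5 and PDE10, was at 1.49, 2.05, 1.30, 2.02 and 2.02 CPM in controls and 6.16, 4.05, 5.46, 6.40 and 6.47 CPM after irradiation. The groups were well apart, with a log2 fold change of 1.68 (SE 0.16), 3.21-fold higher (edgeR adjusted p = 0.000177).

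PDE6B, a photoreceptor enzyme subunit, was at 0.252 to 0.598 CPM in controls and 0.224 to 0.303 CPM after irradiation, with a log2 fold change of -0.57 (edgeR adjusted p = 0.0305) that was lost in 6 of 13 alternatives. PDE9A, a cGMP-specific enzyme, was at 30.4 ± 3.11 and 26.4 ± 1.56 CPM (SD, n = 5), with a log2 fold change of -0.20 that lay at the threshold (edgeR adjusted p = 0.0517; 0.0124 to 0.183 over 13 alternatives). PDE6A, PDE6C, PDE6D, PDE7A and PDE8B did not pass it. PDE2A, which cGMP stimulates, held only 2 to 5 counts in each control and 9 to 33 in each irradiated library, under the minimum of 200 in all. In a fit that left in all genes with 1 count or more, it had a log2 fold change of 2.81 (edgeR adjusted p = 9.34e-07). With the filterByExpr filter of edgeR the change was 2.84. PDE2A passes that filter only through the irradiated libraries, where it is high, so these values are descriptions and no support for a rise.

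To compare genes with each other, CPM was divided by the union exon length in kilobases and summed over the 21 genes with a catalytic subunit. The summed level was 27.1 ± 2.24 CPM per kb in controls and 23.1 ± 1.02 CPM per kb in irradiated samples (SD, n = 5). The order of the genes depended on the length used. By union exon length and by canonical transcript length PDE9A had the highest mean in both groups. By canonical transcript length its lead over PDE1C lay within the spread. It was 13.9 ± 1.42 against 11.9 ± 4.20 CPM per kb in controls and 12.1 ± 0.711 against 11.9 ± 2.45 in irradiated samples. By canonical coding length PDE1C gave the larger share, 19.7% of controls and 22.0% of irradiated samples against 14.2% and 13.7% for PDE9A. By union exon length PDE3A was next in controls, at 4.56 ± 0.836 CPM per kb, ahead of PDE1C at 3.65 ± 1.29, a gap within their spread. After irradiation PDE3A was 4th, at 1.83 ± 0.302 CPM per kb, with PDE1C at 3.65 ± 0.754 and PDE8A at 3.07 ± 0.186. By canonical transcript length PDE3A was 4th in controls and 8th after irradiation, with PDE1C 2nd and PDE8A the third in both groups. By union exon length PDE4D (1.78 ± 0.177) was not separated from PDE3A beyond the spread in irradiated samples. On the same scale PDE1A was 11th in controls, at 0.713 ± 0.772 CPM per kb, with an SD larger than its mean, and 15th after irradiation.

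By subfamily, PDE3 gave 13.7% to 20.0% of the summed level in controls and 6.66% to 10.5% after irradiation, with no overlap. The share of PDE10 was 1.42% to 2.11% and then 3.58% to 4.33%, and that of PDE11 0.431% to 0.628% and then 1.48% to 2.20%. PDE9 held 21.3 ± 1.64% and 21.8 ± 1.95%, and PDE1 15.9 ± 4.05% and 16.1 ± 2.87% (SD, n = 5), differences within the spread between replicates. These shares depend on the length used, and because they sum to a whole, a fall of one raises the others.

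**Figure D4:**
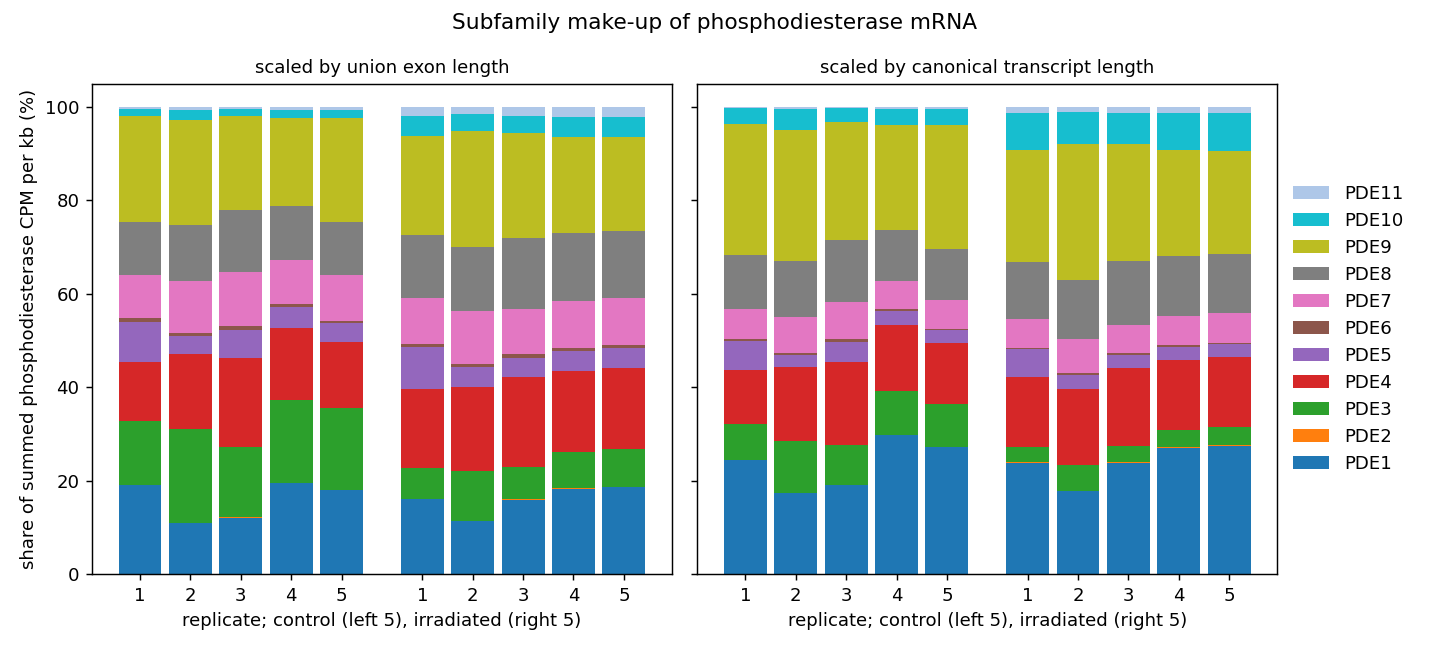
Share of the summed phosphodiesterase level (percent of CPM per kb over 21 catalytic genes) by subfamily in each of the 10 samples, as stacked bars, scaled by union exon length (left) and canonical transcript length (right). In the left panel the PDE3 share lies at 13.7% to 20.0% in the controls and 6.66% to 10.5% in the irradiated samples, while the PDE9 share is similar in both.

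Genes that make, carry and read cyclic nucleotides were followed in 5 lists. Of 69 genes tested, 23 were higher and 22 lower, beside 23.9% and 22.7% of all genes. Among receptors and G proteins (17 tested, 6 higher, 6 lower), PTH1R, the parathyroid hormone receptor, fell from 337.4 to 704.8 CPM in controls to 62.5 to 180.0 CPM, a log2 fold change of -2.13 (SE 0.13; edgeR adjusted p = 3.16e-05). ADORA2B, an adenosine receptor gene, rose from 8.17 to 12.3 CPM to 21.0 to 30.9 CPM, by 1.20 (SE 0.06; edgeR adjusted p = 2.11e-05). AVPR2 fell by 1.68 and CALCR rose by 1.19, both at under 1.5 CPM. The log2 fold change of -4.02 for the glucagon receptor gene GCGR rests on control replicate 3 (4.65 CPM against 0.042 to 0.342 CPM in the other controls), and without that replicate the gene was not tested.

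Of the receptors for the prostaglandin in the medium, PTGER2 did not pass the test, with a log2 fold change of 0.02 and an interval of -0.24 to 0.28, nor did PTGER1 at 0.00. PTGER4 was higher by 0.59 (SE 0.18; edgeR adjusted p = 0.0281), and PTGER3 and PTGIR were under the count minimum.

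Among cyclases (10 tested, 2 higher, 5 lower), GUCY1B1, the beta subunit of the nitric oxide-sensitive guanylyl cyclase, fell from 53.5 to 83.3 CPM to 30.3 to 36.9 CPM, by 1.03 on the log2 scale (SE 0.11; edgeR adjusted p = 0.000228). The adenylyl cyclase genes ADCY3 and ADCY10 fell by 0.79 and 0.38, whereas ADCY5 and ADCY7 rose by 0.73 and 0.55. The calls of ADCY5 (adjusted p = 0.0546) and ADCY7 (0.0588) were lost without replicate 1, that of ADCY7 also without replicate 5 (0.0509), and that of ADCY10 in 7 of 13 alternatives. Among effectors (16 tested, 7 higher, 5 lower), RAPGEF3, which encodes EPAC1, fell by 0.69, PRKACA, a catalytic subunit of protein kinase A, by 0.44, and CALM3, one of the calmodulin genes, by 0.38. PKIB, an inhibitor of protein kinase A, rose by 0.63. PRKAR2B, a regulatory subunit, rose by 2.18, from 3 to 12 counts per control library to 10 to 48 per irradiated library. With 203 counts in all, PRKAR2B passed the minimum of 200 only because its counts were high in the irradiated libraries. Its value is therefore a description and no support for a rise, although it is counted among the 7 called higher.

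Of the anchoring proteins that hold protein kinase A and phosphodiesterases together (12 tested, 5 higher, 2 lower), AKAP12 rose from 49.1 to 189.7 CPM in controls to 463.0 to 717.6 CPM, by 2.74 (SE 0.35; edgeR adjusted p = 0.000631), AKAP7 by 0.62 and EZR by 0.41. AKAP5 fell by 0.38 and PDE4DIP, which encodes a PDE4D-interacting protein, by 0.33. In the CREB list of transcription factors and targets (14 tested, 3 higher, 4 lower), PPARGC1A fell from 43.2 to 81.6 CPM to 18.2 to 25.6 CPM, by 1.30 (SE 0.15; edgeR adjusted p = 0.000436). ATF1 and CREBBP fell by 0.34 and 0.30. DUSP1, SIK1 and CREB1 rose by 0.72, 0.44 and 0.16. The call of CREB1 was lost in 4 of 13 alternatives (adjusted p up to 0.277), that of SIK1 without replicate 4 (0.0516), and those of DUSP1 (0.0873) and AKAP5 (0.0800) without the replicate block. The median log2 fold change was 0.02 over the tested receptors and G proteins, -0.23 over the cyclases, 0.03 over the effectors, 0.08 over the anchoring proteins and -0.09 over the CREB list.

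**Figure D5:**
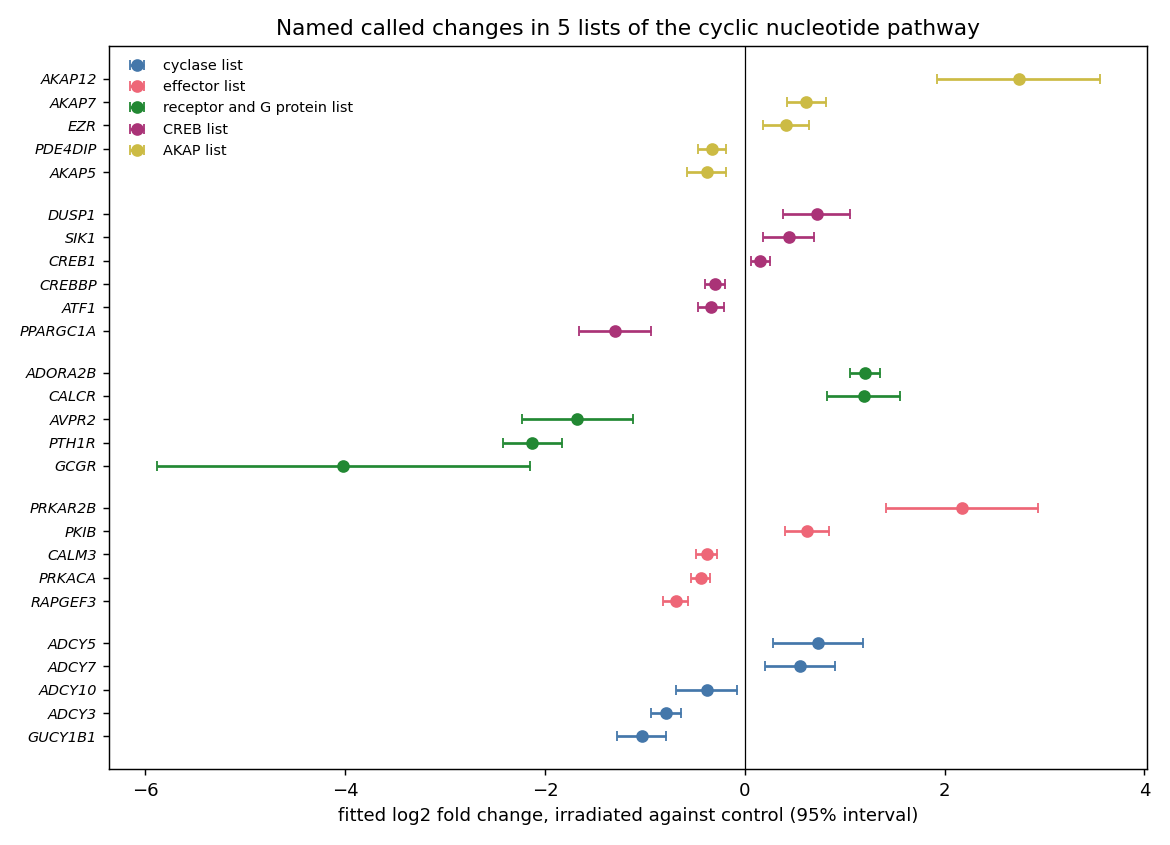
Fitted log2 fold changes (irradiated against control, points, with 95% confidence intervals) of the called genes named in the text from each of the 5 pathway lists, coloured by list. PTGER4, named as a prostaglandin receptor, is not drawn. Each list has genes on both sides of 0, the interval of AKAP12 lies wholly above it, and the interval of GCGR is the widest shown.

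Across the 10 samples, the 5 genes whose log2 CPM was most like that of PDE1A were CYP2B6 (Pearson r = 0.984), the lncRNA ENSG00000272970 (0.980), LPA (0.980), ARMC3 (0.978) and FAM131B (0.976). The 10 points share the group difference and replicate 1, so these are descriptions. Each of the 5 genes was highest in control replicate 1, at 0.966 CPM for CYP2B6, 5.25 CPM for ARMC3 and 18.2 CPM for FAM131B, and each was higher in irradiated replicate 1 than in the other irradiated samples.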

How the data were processed

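RNA from 5 control and 5 irradiated cultures was sequenced by the study. Per the methods, the authors trimmed reads with Trim-Galore, aligned them to GRCh38 with STAR and deposited whole-number counts per gene. The annotation release and strand setting are not given in the sources used here, and the labels and the methods name different library kits. Counts were 0 for 97.9% of 425 lncRNA genes covered in full by exons on the other strand, and for 28.8% of those with no overlap, so reads were treated as unstranded. The cell line label counts up from RPTEC/TERT1 to RPTEC/TERT10, and the methods name RPTEC/TERT1 alone.

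Of 61587 rows, 61369 matched GENCODE release 44, used for symbols, coordinates and lengths. Counts were fitted with edgeR 4.0.16 (quasi-likelihood, TMM, replicate number as a block) over the 19006 genes with at least 200 counts in all, with Benjamini-Hochberg adjustment. The study also had replicate in its model. Deviations of same-numbered samples correlated at 0.22 to 0.51, those of differently numbered ones at -0.35 to 0.32. Scripts were tested on simulated data. The genes and lists were chosen with earlier results of these data known. Named pathway genes are the 3 with the largest fitted rise and the 3 with the largest fall among those called in each list, and the receptors for prostaglandin E1; a few genes are not reported here. One listed anchoring gene had no matching row.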

Additional observations from a re-analysis of the deposited data

Results flagged for a closer look

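Among 98 groups of 5 values (49 genes in 2 conditions), 14 held a sample far from the other 4 by Dixon's criterion. Its nominal rate is about 1 in 20. Over all 19006 genes tested, control replicates 1 to 5 stood apart at 2.15%, 0.631%, 6.84%, 0.226% and 0.168% of genes. For irradiated replicates 1 to 5 the shares were 1.07%, 2.98%, 2.04%, 0.321% and 0.274%. The nominal rate applies to a group of 5 values and each share to a single library, so they are not on the same scale. Control replicate 3 had the highest share, and an excess over these shares was not tested. Replicate 1 accounted for PDE1A in controls (13.8 CPM, the others 1.95 to 3.26) and in irradiated samples (0.939, the others 0.164 to 0.259), PDE5A in irradiated samples (21.2, the others 8.91 to 9.75), PDE4D in controls (25.3, the others 33.2 to 36.1), PTH1R in controls (704.8, the others 337.4 to 397.8) and AVPR2 in irradiated samples (0.434, the others 0.142 to 0.179). Irradiated replicate 2 stood low for PDE8A (22.0, the others 24.8 to 25.8), PDE6D (12.5, the others 15.6 to 16.6) and AKAP12 (463.0, the others 648.5 to 717.6). Control replicate 3 stood low for ADCY7 (6.72, the others 11.4 to 12.5) and CREBBP (120.3, the others 150.0 to 159.3), and high for GCGR (4.65, the others 0.042 to 0.342), DUSP1 (65.3, the others 23.8 to 27.9) and SIK1 (7.83, the others 4.75 to 5.24).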

How the results depend on the processing

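No gene changed the direction of a call. Of 130 alternative values for the 10 genes (13 alternatives each), 117 kept the side of the threshold, 5 lost the threshold and 8 gained it. Among those 117, genes not called could change sign, as PDE1C ran from -0.05 to 0.14 and PDE8A from -0.05 to 0.06. The 117 include all 13 values of PDE1A, which was chosen for its fall, so these are no support for it. For the other named genes these were 421, 23 and 7 of 451. Leaving out 1 replicate at a time gave 1 to 2 of the 10 genes higher and 3 to 5 lower, PDE1A included, and 0 to 1 of the other phosphodiesterase genes lower. That last count was 2 with upper-quartile factors, library size only, a minimum of 1 count, filterByExpr or limma-voom, where PDE9A joined PDE6B. The higher count was 2 with a minimum of 1 count or filterByExpr, where PDE2A, at 2 to 5 counts per control library, joined PDE11A. Without the replicate block 0 of the other phosphodiesterase genes were lower, and beside PDE1A the genes PDE3A, PDE4A, PDE4B, PDE7B and PDE10A were still called. Over all genes, 3640 were then higher and 3366 lower, against 4550 and 4307. With library size only these were 3609 and 5894. The change in the PDE3 share, -8.86 percentage points, was -5.14 by canonical transcript length and -11.9 without length scaling. That of PDE10, 2.27, was 4.01 by canonical transcript length, 5.47 by canonical coding length and 7.63 without length scaling. The length scales were added after the data were seen, and the planned coding length from a protein table was not run. Counts of 3 to 48 per library limit PRKAR2B and 11 to 93 the irradiated PDE1A values.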
